A study of Capsicum annuum and Capsicum chinense and Capsicum annuum var. glabriusculum with 33 samples.

Results

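Stem-enriched genes of Zunla 1, a Capsicum annuum inbred line, are the 100 genes whose poly(A) RNA stood furthest above every other organ of that line in its developing stem. They were taken from 31426 predicted genes, for which the deposited table gives RPKM (reads per kilobase of gene length, adjusted for library size) in 33 pepper libraries. Among the 14 Zunla 1 libraries, 1627 genes had their highest value in stem at 10 RPKM or more. These genes were ranked by log2(RPKM + 1) in stem minus the same in the highest of the other 13 libraries, called the stem excess below, and the first 100 were kept. The genes were thus selected on the Zunla 1 values, which are given as a description and no test was made on them.

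The other Zunla 1 libraries were developing roots, mature leaves, closed buds, open flowers and 9 fruit stages. The fruit stages were 0 to 1, 1 to 3, 3 to 4 and 4 to 5 cm long (growing fruit), mature green, breaker (the onset of colour), and 3, 5 and 7 days after breaker. HYL, a line of C. chinense, had stem, root and leaf of seedlings, fruit 5 days after breaker and mature green fruit. The growth stages of the HYL and Zunla 1 stems therefore differed as well as the lines, and the 2 cannot be told apart. Chiltepin, C. annuum var. glabriusculum, had a leaf mix of several stages, a mix of buds and open flowers, and breaker fruit. Fruit 5 days after breaker came from the C. annuum lines ZJ49 and ZJ7, and mature green fruit from 8 further libraries of C. annuum lines, ZJ32, ZJ9, ZJ49, 11c255, G16, 11c320, T803 and SP3 (also labelled SP163). 1 breaker fruit library carries the names of both HYL and Zunla 1. It was kept out of all tests and of the HYL counts, and entered only counts over all other lines or all 33 libraries. With a single library for every line, organ and stage, p-values reflect how much organs or lines vary, not how much plants vary.

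The stem carries leaves, flowers and fruit. Its xylem moves water and minerals upward and its phloem moves sugars, and the walls of xylem vessels and fibres are thickened with cellulose, xylan and lignin. Genes for such walls, for vascular transport and for dividing cambium are known for high RNA levels in stems. None of the 31426 gene IDs matched the gene name table used here (0 matches), so no member is given a name or a role, and lists of wall, vascular, leaf, pollen or root genes could not be drawn up. The stem library could for the same reason not be checked against markers of its cell types. These are bulk samples, in which fewer cells of a type and less RNA per cell cannot be told apart.

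Between 12175879 and 15264159 reads fell in genes in 25 libraries, and between 25289014 and 30448275 in 8 deeper ones, the 3 of chiltepin and mature green fruit of 11c255, 11c320, G16, SP3 and T803. All 100 members had at least 76 reads in Zunla 1 stem, with a median of 876.5.

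In Zunla 1 stem the members ranged from 10.7 to 2950 RPKM, with quartiles of 29.0, 60.5 and 172 RPKM. 38 members were at 100 RPKM or more, 7 at 1000 RPKM or more and 18 below 20 RPKM. Together they made up 2.46% of the summed RPKM of that library, against at most 0.463% in any other Zunla 1 library. The stem excess ran from 5.75 down to 1.46 on the log2(RPKM + 1) scale, with a median of 1.90. It was at least 3 for 14 members and at least 2 for 43. 46 members stayed under 10 RPKM in all 13 other libraries, and 5 stayed under 1 RPKM. The list thus holds a few genes that were almost silent elsewhere in the line and many that were present elsewhere at lower levels.

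The boundary of the list lies on a smooth slope. Capana08g002085 at rank 99 had 70.8 RPKM in stem and 25.1 RPKM in fruit of 1 to 3 cm, an excess of 1.46. Capana02g003199 at rank 100 had 12.7 RPKM in stem and 3.97 RPKM in fruit of 4 to 5 cm, also an excess of 1.46. Just outside, Capana04g001255 had 17.8 RPKM in stem and 5.83 RPKM in fruit 7 days after breaker (excess 1.46), and Capana12g000614 had 60.6 RPKM in stem and 21.6 RPKM in root (excess 1.45).

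**Figure D1:**
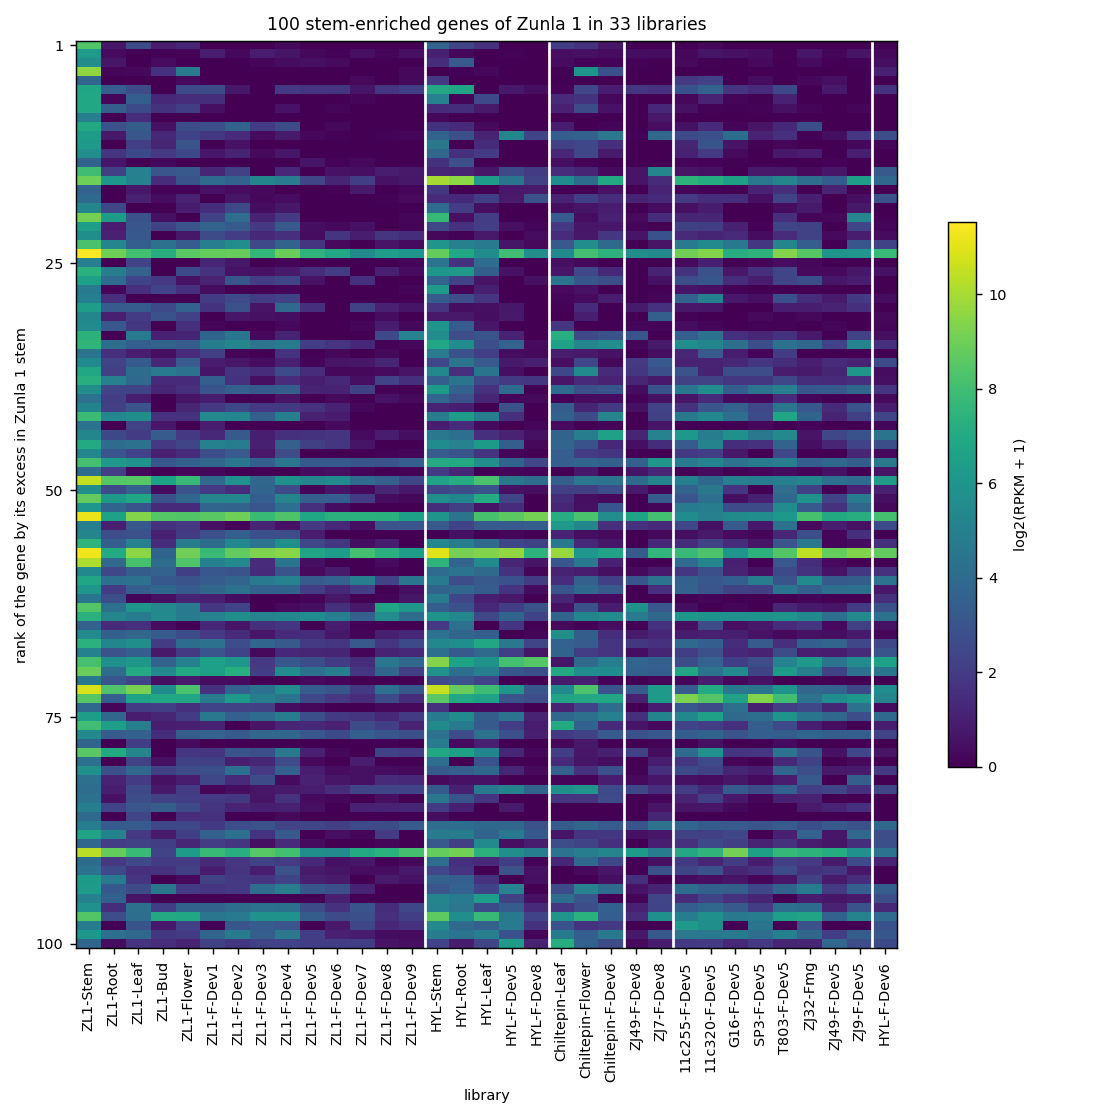
Level of the 100 stem-enriched genes, log2(RPKM + 1) by colour, in 33 libraries (columns, split by line set) with the genes ordered by their rank in Zunla 1 stem (rows). The first column, Zunla 1 stem, is the brightest of the 14 Zunla 1 columns in every row because the rule chose it, the HYL stem column is the brightest outside Zunla 1, and a few rows such as rank 24 and rank 57 are bright across most libraries.

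Members differed in where the RNA was next most abundant. The next highest Zunla 1 library was growing fruit for 34 members, leaf for 27, root for 22, bud or flower for 13 (8 and 5) and fruit from mature green onward for 4. The median level over the 100 members was 60.5 RPKM in stem, 5.32 in root, 7.13 in leaf, 1.74 in bud and 3.25 in open flower. In fruit the median was 2.83, 3.83, 1.41 and 3.03 RPKM through the 4 growing stages. It was 0.667 RPKM at mature green, 0.547 at breaker, and 0.243, 0.297 and 0.206 RPKM at 3, 5 and 7 days after breaker. In those 5 later stages between 31 and 45 members reached 1 RPKM, against 86 in leaf. Over all genes the shares at 1 RPKM or more were 53.7% to 57.7% in those stages and 61.8% in leaf. The median over all genes of the table in the same 5 stages lay between 1.59 and 2.39 RPKM. It was 3.67, 3.65, 3.21 and 3.46 RPKM through the growing stages and 2.53 RPKM in bud. The members thus lay below the typical gene in bud and in all fruit stages except 1 to 3 cm. They lay above it in stem, root, leaf, open flower and fruit of 1 to 3 cm.

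**Figure D2:**
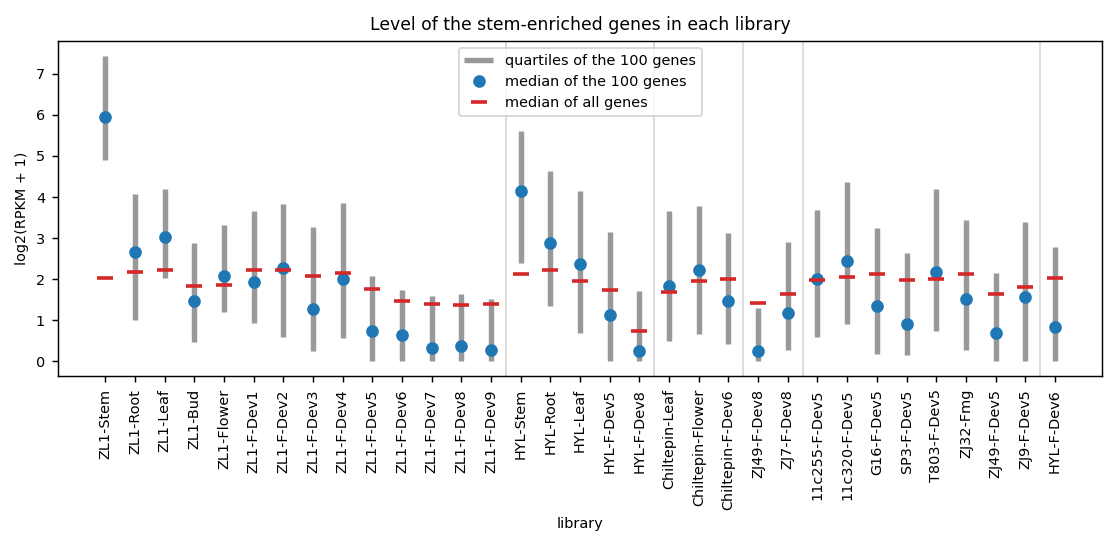
Median (points) and quartiles (bars) of log2(RPKM + 1) over the 100 stem-enriched genes, and the median over all genes (red dashes), in each of 33 libraries. The members' medians of 60.5 RPKM in Zunla 1 stem and 16.7 RPKM in HYL stem stand above the other libraries of each line, and in fruit from breaker onward in Zunla 1 the members lie below the median of all genes.

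The members ranked first were nearly confined to stem within Zunla 1. Capana01g000187, ranked first, had 339 RPKM in stem (1561 reads), 0.645 in root, 5.30 in leaf, 0.848 in bud and 1.28 in flower. It had 1 read over all 9 fruit libraries. Leaf was its only Zunla 1 library above 2 RPKM besides stem. In HYL it was highest in stem again, at 11.9 RPKM, against 4.31 in root, 2.14 in leaf and 0 in both fruit libraries. Chiltepin had 3.30 RPKM in leaf, 2.18 in the flower mix and 0.624 in breaker fruit.

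Capana05g002022, ranked second, had 75.2 RPKM in Zunla 1 stem (845 reads). The other 13 Zunla 1 libraries were all below 1 RPKM, with a lowest value of 0, a median of 0.181 and a highest value of 0.893. HYL stem held 1.02 RPKM, above the 0.186 RPKM of HYL root and the 0.0898 RPKM of HYL mature green fruit, and HYL leaf and fruit 5 days after breaker were at 0. Stem was the highest library in both lines, and the HYL values below stem rest on 2 reads in root and 1 in mature green fruit.

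The most abundant members were not restricted to stem. Capana06g000782 (rank 24) had 2950 RPKM in Zunla 1 stem, 499 in root, 263 in leaf, 155 in bud and 380 in flower. Its 9 fruit stages ran from 44.3 to 487 RPKM with a median of 180, so no Zunla 1 library was without it. In HYL it had 447 RPKM in stem, 120 in root, 46.2 in leaf, 48.6 in fruit 5 days after breaker and 251 in mature green fruit. Among mature green fruit of the 8 other lines it ran from 61.4 to 679 RPKM, with a median of 264.

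Capana00g003405 (rank 57) had 2518 RPKM in Zunla 1 stem, 131 in root, 745 in leaf, 12.2 in bud and 514 in flower, and its fruit stages ran from 78.5 to 723 RPKM with a median of 226. HYL stem was close to this level, at 2052 RPKM, against 571 in root, 656 in leaf, 172 in fruit 5 days after breaker and 820 in mature green fruit. In chiltepin it was the member with the highest value, 860 RPKM in leaf, against 66.4 in the flower mix and 106 in breaker fruit. It also had the highest value of any member in mature green fruit, 1364 RPKM in ZJ32.

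Whether the stem preference held in another species was asked of the 5 HYL libraries, none of which the rule used. HYL stem was the highest of the 5 for 59 of the 100 members. Over the 21905 genes that reached 1 RPKM in a HYL library the same share was 17.8%, and 57 of the 93 members that did so (61.3%) were highest in stem. HYL stem stood at least 2-fold above all 4 other HYL libraries, on the log2(RPKM + 1) scale, for 29 members against 1.95% of all genes. Without HYL root the count was 49 members against 8.69% of all genes. At 4-fold the count was 11 members against 0.434% of all genes. Among genes at 10 RPKM or more in HYL stem, 45 of 61 members (73.8%) and 22.1% of all genes had their highest value there. HYL had 1 stem library, so these shares carry no test. It had no library of growing fruit, bud or flower, so fewer organs stood against stem than in Zunla 1.

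The 41 members that were not highest in HYL stem were highest in root (19), leaf (12), mature green fruit (7) or fruit 5 days after breaker (3). Over all genes those organs were the highest for 28.1%, 28.4%, 16.1% and 9.53%. The median stem excess in HYL was 0.32 over the 100 members, and -0.66 over the 21905 genes. Over the 100 members the stem excess of the 2 lines was weakly related (Pearson 0.11, Spearman 0.14 across genes, whose values are not independent). The stem levels themselves were more closely related, with a Pearson correlation of 0.64 on the log2 scale and a Spearman correlation of 0.58.

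The share of genes with stem preference in HYL was lower in each successive bin of the Zunla 1 ranking. HYL stem was the highest HYL library for 68%, 60%, 56% and 52% of genes in ranks 1 to 25, 26 to 50, 51 to 75 and 76 to 100. It was the highest for 42% of ranks 101 to 200, 30.5% of ranks 201 to 400, 22.8% of ranks 401 to 800 and 19.3% of ranks 801 to 1627. At least a 2-fold excess in HYL stem was found for 36%, 32%, 28% and 20% of the 4 bins inside the list, and for 11%, 8%, 2.25% and 1.09% of the 4 bins outside it.

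**Figure D3:**
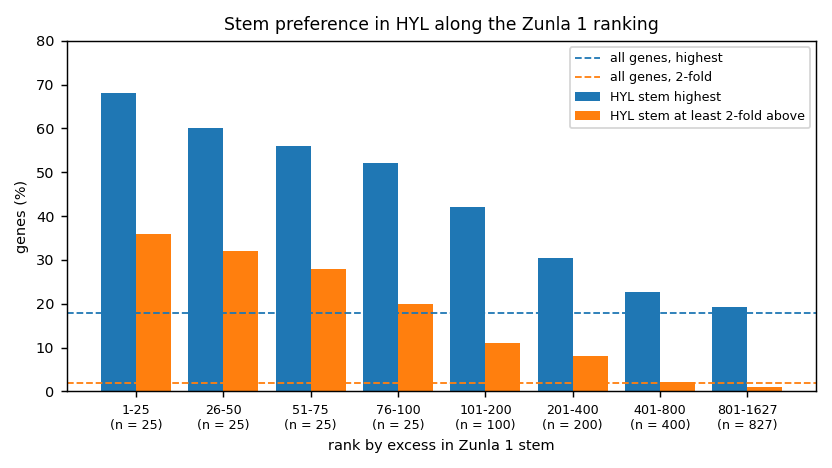
Percentage of genes whose highest HYL library was stem (blue bars) and of genes at least 2-fold above the other 4 HYL libraries in HYL stem (orange bars), in bins of the Zunla 1 stem ranking, with the shares over all genes as dashed lines. The blue bars step down from 68% in ranks 1 to 25 to 19.3% in ranks 801 to 1627, close to the 17.8% of all genes.

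The same rule applied to other Zunla 1 organs gives a scale for these counts. The 100 stem genes had a median excess of 1.90 in Zunla 1, against 5.14 for the first 100 root genes and 2.47 for the first 100 leaf genes. The matching HYL organ was the highest HYL library for 59 of the stem genes, 95 of the root genes and 61 of the leaf genes. Over all genes those organs were the highest for 17.8% (stem), 28.1% (root) and 28.4% (leaf). A 2-fold excess in the matching HYL organ was found for 29 stem, 85 root and 49 leaf genes, against 1.95%, 7.22% and 6.02% of all genes. The baselines of the 3 organs differ, and the counts stand side by side without a test.

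**Figure D4:**
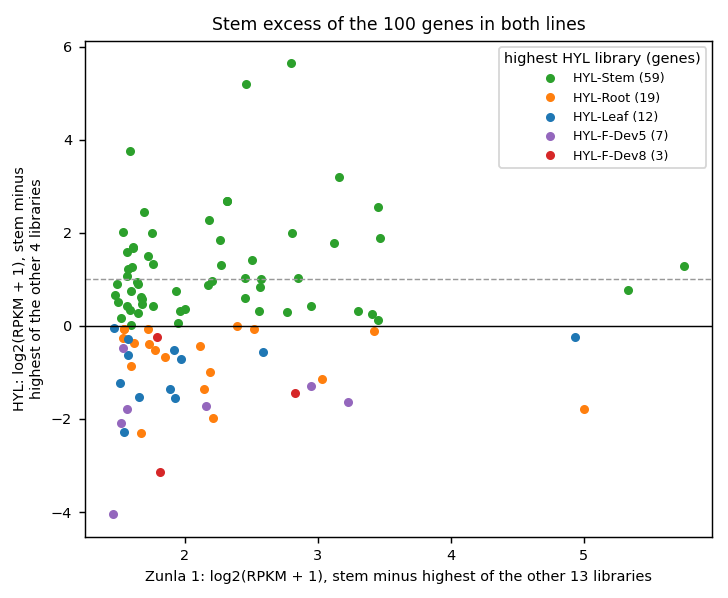
Stem excess of the 100 genes in HYL (vertical axis, log2(RPKM + 1) in stem minus the highest of the other 4 HYL libraries) against that in Zunla 1 (horizontal axis, other 13 libraries), coloured by the highest HYL library. 59 genes lie above 0 and 29 at or above the dashed 2-fold line, spread over the whole range of the Zunla 1 excess.

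Levels in the HYL stem were mostly below those in the Zunla 1 stem, a direction that the choice of genes by a high Zunla 1 value favours. The difference, HYL stem minus Zunla 1 stem, had a median of -1.89 on the log2(RPKM + 1) scale over the members and -0.15 over all genes at 10 RPKM or more in Zunla 1 stem. 15 members were higher in HYL stem, and 45 were at least 4-fold lower there. The matching shares over all genes were not computed, so these counts are not read as a trait of the members. 8 members were under 1 RPKM in HYL stem, and 7 were under 1 RPKM in all 5 HYL libraries. Of all 10906 genes at 10 RPKM or more in Zunla 1 stem, 1.75% were under 1 RPKM in HYL stem and 1.07% in all 5 libraries. Over all genes of the table these shares were 39.4% and 30.3%. The members' summed RPKM made up 0.940% of HYL stem and 2.46% of Zunla 1 stem.

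Capana01g001090 (rank 20) had the largest stem excess of the list in HYL, 5.65. It had 210 RPKM in HYL stem, 0.454 in root, 3.21 in leaf and 0 in both HYL fruit libraries. In Zunla 1 it had 560 RPKM in stem, 79.7 in root, 6.26 in leaf, 0.424 in bud and 0 in flower. Its 4 growing fruit stages ran from 1.20 to 16.3 RPKM, and the 5 later stages held 1 read in all. Stem was the highest library in both lines, in Zunla 1 by the rule and in HYL by the choice of this gene. Root was second in Zunla 1 and leaf second in HYL.

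Capana02g002769 (rank 28) had the second largest HYL excess, 5.21. It reached 72.8 RPKM in HYL stem, against 0.146 in root, 0.995 in leaf and 0 in both HYL fruit libraries. In Zunla 1 it had 26.2 RPKM in stem, 0.138 in root, 2.01 in leaf, 3.95 in bud and 1.99 in flower, and at most 0.285 RPKM in fruit. Its level was higher in HYL stem than in Zunla 1 stem, which held for 9 of the 29 members with a 2-fold excess in HYL.

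At the other end, Capana00g004781 (rank 53) was among the most abundant members in Zunla 1 stem and low in HYL stem. It had 2320 RPKM in Zunla 1 stem, 96.3 in root, 662 in leaf, 355 in bud and 333 in flower, and between 90.6 and 507 RPKM in fruit. In HYL it had 62.4 RPKM in stem, 20.4 in root, 286 in leaf, 559 in fruit 5 days after breaker and 393 in mature green fruit. The HYL stem excess was -3.14, and both HYL fruit libraries lay above all 3 vegetative ones.

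Capana02g003199 (rank 100) had the lowest HYL stem excess, -4.04, with 4.06 RPKM in stem, 0.855 in root, 4.36 in leaf, 1.25 in fruit 5 days after breaker and 82.4 in mature green fruit. It also reached 144 RPKM in chiltepin leaf, against 11.1 in the flower mix and 5.21 in breaker fruit. With 12.7 RPKM in Zunla 1 stem, its values in 2 other lines were far above the one that placed it in the list.

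Capana02g001780 (rank 4), chosen after its values were seen, was abundant in Zunla 1 stem and nearly absent from HYL. It had 785 RPKM in Zunla 1 stem (9654 reads), 0.161 in root, 0.181 in leaf, 1.91 in bud and 24.7 in flower, and 2 reads over the 9 fruit libraries. HYL stem had 0 reads, which allows up to 0.253 RPKM at 3 reads, and the highest HYL value was 0.178 RPKM in leaf. Chiltepin had 61.2 RPKM in the flower mix, 6.12 in breaker fruit and 0.0427 in leaf, so among the 3 chiltepin libraries the flower mix was highest. Mature green fruit of the 8 other lines held 0 reads in all.

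Capana03g003909 (rank 3) and Capana03g003908 (rank 14), also chosen after their values were seen, carry adjacent IDs. In Zunla 1 stem they had 50.8 and 11.8 RPKM, and no other Zunla 1 library exceeded 0.616 and 0.572 RPKM. In HYL both were highest in root, at 8.40 and 6.03 RPKM, against 1.74 and 2.20 RPKM in stem and 0 in leaf and fruit. Near-identical copies could share reads, and how reads were assigned between copies is not given in the sources used here. 12 members had another member within 10 ID numbers, against 18 of the first 100 root genes and 14 of the first 100 leaf genes.

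The organ next to stem in Zunla 1 was compared with the highest HYL library besides stem, which was root for 48, leaf for 29 and fruit for 23 of the 100 members. Of the 22 members with root as the next highest Zunla 1 library, 19 had root next in HYL. Their median was 32.5 RPKM in HYL stem, 15.4 in HYL root and 3.57 in HYL leaf. Of the 27 members with leaf next in Zunla 1, 10 had leaf next in HYL, 7 had root and 10 had fruit. Of the 34 members with growing fruit next in Zunla 1, 8 had fruit next in HYL, 16 had root and 10 had leaf. HYL had no library of growing fruit, bud or flower, so these organs could not come next there. HYL stem was the highest HYL library for 13 of the 22 root members, 13 of the 27 leaf members, 8 of the 13 bud or flower members, 21 of the 34 growing fruit members and 4 of the 4 later fruit members.

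HYL vegetative organs (stem, root and leaf) were then compared with HYL fruit (5 days after breaker and mature green) across all genes, to ask whether the members belonged to vegetative growth there. Without a filter on low values, 0 of the 100 members were higher and 0 lower in vegetative organs by limma on log2(RPKM + 1) with Benjamini-Hochberg adjusted p under 0.05, against 0.108% and 0.366% of all 31426 genes. The median log2 fold change was 2.08 over the 100 members and 0.17 over all genes, and 40 members and 3938 genes had an unadjusted limma p under 0.05. With the filter of 1 RPKM in 2 libraries, 5 members were higher and 0 lower, against 0.711% and 1.13% of 19844 genes tested. The median log2 fold change was then 2.38 over the members tested and 0.59 over all genes tested. 86 members passed this filter, and 33 of them, 2 of the 5 called among them, were under 1 RPKM in both fruit libraries and so passed through the vegetative organs alone. Over all genes tested that share was 10.3%. The filter thus admits some members on the side where they are high, and the 5 calls were lost without it. The adjustment without it also covered 31426 genes in place of 19844, and which of these removed the calls was not tested.

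Capana06g000460 (rank 79) had the largest difference among the members called with the filter. It had 118 RPKM in HYL stem, 92.3 in root and 38.7 in leaf, against 0.186 RPKM in fruit 5 days after breaker and 1.37 RPKM in mature green fruit. All 3 vegetative libraries lay far above both fruit libraries. The means were 82.9 ± 40.3 RPKM in vegetative organs (SD, n = 3) and 0.780 ± 0.841 RPKM in fruit (SD, n = 2), a limma log2 fold change of 5.50 (SE 0.682, Benjamini-Hochberg adjusted p = 0.0172 with the filter and 0.115 without it). 4 of 8 alternative settings kept the call. In Zunla 1, where the rule fixed stem as the highest library, Capana06g000460 had 381 RPKM in stem, 127 in root and 37.8 in leaf. It had at most 23.6 RPKM in Zunla 1 fruit.

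Capana10g002303 (rank 23) had 64.2 RPKM in HYL stem, 31.2 in root and 25.9 in leaf, against 0.206 RPKM in fruit 5 days after breaker and 0.586 RPKM in mature green fruit. The groups did not overlap. Its means were 40.4 ± 20.7 RPKM in vegetative organs (SD, n = 3) and 0.396 ± 0.268 RPKM in fruit (SD, n = 2), a limma log2 fold change of 4.79 (SE 0.634). It passed the filter through the vegetative organs alone, and its Benjamini-Hochberg adjusted limma p was 0.0209 with the filter and 0.0994 without it. 2 of 8 alternative settings kept the call, and leaving out any 1 of the 5 HYL libraries lost it. Unlike HYL mature green fruit, mature green fruit of the 8 other lines ran from 0 to 45.2 RPKM for this gene, with a median of 16.7.

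The calls of all genes also rest on few libraries. Without the HYL stem library 0 members and 0 of 18791 genes were higher, and without fruit 5 days after breaker 0 members and 0 of 19507 genes. Without root, 2 members and 83 of 18875 genes were higher, without leaf 3 members and 37 of 19234 genes, and without mature green fruit 3 members and 211 of 19297 genes. HYL fruit 5 days after breaker had a median over all genes of 0.678 RPKM, against 2.35 in HYL mature green fruit and 2.86 to 3.67 in the vegetative organs. The part of this low level in the result was not tested.

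The 3 chiltepin libraries contain no stem. 76 members reached 1 RPKM in at least 1 of them, and 24 were under 1 RPKM in all 3. The 24 compare with 1.3% of the 10906 genes at 10 RPKM or more in Zunla 1 stem and 32.9% of all genes. The rule chose members for lower values outside stem in Zunla 1. The count of 24 is thus not read as a trait of the members. The 76 were highest in leaf (32), the flower mix (28) or breaker fruit (16), and over all genes at 1 RPKM or more the shares were 21.2%, 32.7% and 46.2%. Median levels over the 100 members were 2.54 RPKM in leaf, 3.69 in the flower mix and 1.77 in breaker fruit. The chiltepin libraries are among the deeper ones, so low values there rest on more reads.

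Capana02g002900 (rank 72) reached 314 RPKM in the chiltepin flower mix, against 42.9 in leaf and 6.61 in breaker fruit. In both other lines it was highest in stem, with 1525 RPKM in HYL stem, 466 in root, 248 in leaf, 7.37 in fruit 5 days after breaker and 63.6 in mature green fruit. In Zunla 1 it had 1797 RPKM in stem, 331 in root, 588 in leaf, 45.8 in bud and 305 in flower, and between 2.08 and 46.7 RPKM in fruit.

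4 members had 0 reads in all 3 chiltepin libraries. The one with the highest level in Zunla 1 stem, Capana09g000058 (rank 85), had 30.2 RPKM there and 3.19 RPKM in HYL stem, and 0 reads allow up to 0.303 RPKM in chiltepin leaf at 3 reads. Capana01g004449 (rank 9) had 29.5 RPKM in Zunla 1 stem and 1.88 RPKM in leaf, and 0 reads in the other 12 Zunla 1 libraries. It had 1 read in HYL stem, at 0.195 RPKM, and 0 reads in mature green fruit of all 8 lines.

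25 members were higher in at least 1 library of another line than in Zunla 1 stem. Among the 1627 genes highest in Zunla 1 stem that share was 50.6%, and among all genes at 10 RPKM or more there it was 86.2%. The breaker fruit library of unclear line entered this count and these shares, and without it the members' count was also 25. The higher value was in HYL for 19 members, 15 of them in HYL stem, in mature green fruit for 7, in chiltepin for 6 and in ZJ49 or ZJ7 fruit 5 days after breaker for 0. Over all 33 libraries, Zunla 1 stem was the highest for 75 members, against 49.4% of the 1627 genes, and HYL stem for 12. The rule ranked the members by their excess in Zunla 1 stem, which favours the 75 and disfavours the 25. Neither count is therefore read as a trait of the members. 11 members were at least 2-fold above their Zunla 1 stem RPKM in some library of another line. Capana02g003199 was the most extreme of these, at 11.3 times its Zunla 1 stem value in chiltepin leaf.

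In mature green fruit of the 8 other lines 81 members reached 1 RPKM in at least 1 line and 31 did so in all 8. 19 stayed under 1 RPKM in all 8, against 0.559% of genes at 10 RPKM or more in Zunla 1 stem. Over all genes of the table that share was 29.6%. The rule favours low values outside stem, so the 19 are not read as a trait of the members. The members' median was 4.47 RPKM in 11c320, 3.48 in T803, 3.01 in 11c255, 1.95 in ZJ9, 1.86 in ZJ32, 1.54 in G16, 0.888 in SP3 and 0.598 in ZJ49. The median over all genes lay between 2.14 and 3.36 RPKM in the same libraries. Of the 81 members, 29 were highest in 11c320, against 10.9% of all genes at 1 RPKM or more, and 1 was highest in ZJ49, against 19.3% of all genes. 14 were highest in T803 (10.1% of all genes), 14 in ZJ32 (20.4%), 10 in ZJ9 (11.2%), 8 in 11c255 (7.72%), 3 in SP3 (9.07%) and 2 in G16 (11.3%).

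The members also varied widely among these lines. The difference between the highest and the lowest line had a median of 2.76 log2(RPKM + 1) units over the 81 members and 1.52 over all genes at 1 RPKM or more. Among genes with a median over lines of 1 to 10 RPKM it was 2.52 for 38 members and 1.70 for 8233 genes. The 3 lines with the highest members' medians, 11c320, T803 and 11c255, were all deeper libraries, while the deeper libraries of G16 and SP3 had medians of 1.54 and 0.888 RPKM. The part of depth in these differences was not tested, and with 1 fruit library a line the line and the library cannot be told apart.

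Fruit 5 days after breaker (ZJ49 and ZJ7) was compared with mature green fruit of the 8 lines to ask how the members behaved in ripening outside Zunla 1. 2 members were higher and 5 lower, by limma on log2(RPKM + 1) with Benjamini-Hochberg adjusted p under 0.05. Of 21243 genes tested, 4.25% were higher and 6.9% lower, so the members' counts were near those of all genes. Of all calls 38.1% were higher, and 51.9% were with median-of-ratios scaling. 81 members were tested and 19 did not pass the filter. Without the filter the median log2 fold change was -0.66 over the 100 members and -0.04 over all 31426 genes. With the filter it was -0.88 over the 81 members tested and -0.23 over the 21243 genes tested. 43 members were under 1 RPKM in both ripening libraries, against 3.72% of genes at 10 RPKM or more in Zunla 1 stem. Over all genes of the table the share was 41.1%, close to that of the members.

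Capana00g004655 (rank 16) showed the largest fall. It had 0.516 RPKM in ZJ49 and 1.57 RPKM in ZJ7 fruit 5 days after breaker, against 9.28 to 173 RPKM in mature green fruit, with a median of 62.5. The groups did not overlap. Its means were 1.04 ± 0.742 RPKM 5 days after breaker (SD, n = 2) and 72.5 ± 61.1 RPKM at mature green (SD, n = 8), a limma log2 fold change of -4.64 (SE 0.982, Benjamini-Hochberg adjusted p = 0.0166). In HYL it had 1027 RPKM in stem and 759 in root, above the 509 RPKM of Zunla 1 stem, with 79.7 RPKM in leaf, 3.72 in fruit 5 days after breaker and 20.7 in mature green fruit.

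Capana06g001688 (rank 34) had 0.152 RPKM in ZJ49 and 0.760 RPKM in ZJ7 fruit 5 days after breaker, against 3.92 to 52.9 RPKM in mature green fruit, with a median of 18.3. The groups did not overlap. The limma log2 fold change was -3.70 (SE 0.807). Capana06g001688 passed the filter through mature green fruit alone, the side where it is high. Its Benjamini-Hochberg adjusted limma p was 0.0185 with the filter and 0.0429 without it. The gene had 184 RPKM in Zunla 1 stem and 119 RPKM in HYL stem, each the highest of its line.

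Capana11g002303 (rank 63) moved the other way. It had 60.1 RPKM in ZJ49 and 7.81 RPKM in ZJ7 fruit 5 days after breaker, against 0 to 3.02 RPKM in mature green fruit, with a median of 0.443. The groups did not overlap, and the limma log2 fold change was 3.88 (SE 0.685, Benjamini-Hochberg adjusted p = 0.00848). In Zunla 1 it had 345 RPKM in stem and, in fruit, 108 RPKM at 5 and 66.6 RPKM at 7 days after breaker, with at most 3.98 RPKM in the 7 other fruit stages. HYL showed 6.77 RPKM in fruit 5 days after breaker and 3.36 RPKM in mature green fruit.

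Capana12g001930 (rank 36) had 2.72 RPKM in ZJ49 and 8.43 RPKM in ZJ7 fruit 5 days after breaker, against 0.942 to 2.56 RPKM in mature green fruit, with a median of 1.39. The limma log2 fold change was 1.26 (SE 0.360, Benjamini-Hochberg adjusted p = 0.0474), and 3 of 17 alternative settings kept the call.

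**Figure D5:**
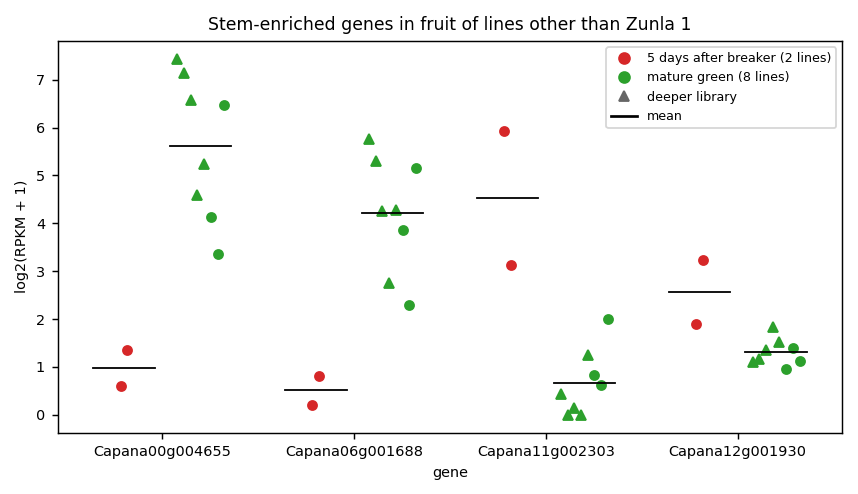
log2(RPKM + 1) of 4 stem-enriched genes in fruit 5 days after breaker (red, ZJ49 and ZJ7) and mature green fruit (green, 8 lines), with each group's mean as a line and the deeper libraries as triangles. Capana00g004655 and Capana06g001688 were lower 5 days after breaker in both lines, and Capana11g002303 and Capana12g001930 higher, with no overlap between the groups.

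Sequencing depth moved with the stage in this comparison, since both libraries 5 days after breaker were shallower and 5 of the 8 mature green ones deeper. Within the shallower libraries (2 against 3) no gene was called, with a lowest Benjamini-Hochberg adjusted limma p of 0.0888 over 19291 genes, 3312 genes and 13 members at an unadjusted p under 0.05, and log2 fold changes of -3.68 for Capana00g004655, -3.26 for Capana06g001688 and 3.39 for Capana11g002303. With no filter, 2 members were higher and 3 lower, against 2.65% and 3.21% of 31426 genes. ZJ49 and HYL had both stages, and with the line as a block over those 4 libraries 2 of 46 tested members were higher and 19 lower by limma, against 3.56% and 12.7% of 17997 genes, in a fit with 1 residual degree of freedom. Without ZJ49 5 days after breaker 0 members were higher and 0 lower, with 40 and 16 of 21076 genes. Without ZJ49 mature green fruit 2 members were higher and 10 lower, with 1599 and 2814 of 21155 genes.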

How the data were processed

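The deposited table gives RPKM for 31426 genes in 33 libraries of strand-specific, paired poly(A) RNA sequencing (Illumina HiSeq, per the labels' protocols), 1 column a library, with RPKM computed by the authors. For the aligner, counting tool, build and annotation, the entry is: not given in the sources used here. Whole reads were recovered from the steps between RPKM values for 28803 genes (tolerance 0.01 reads), which hold at least 99.9% of each library's RPKM, and were used for depth and for values near 0. The limit printed for 0 reads is the RPKM of 3 reads, which covers counting error only. No library was treated as a duplicate, since the lowest chi-square per gene between any pair, over genes with 20 reads or more, was 58.4.

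Comparisons used limma 3.58.1 in R 4.3.3 (eBayes with trend, two-sided) on log2(RPKM + 1), keeping genes that reached 1 RPKM in 2 or more libraries, with Benjamini-Hochberg adjustment over all genes tested. This scale understates fold changes of low genes. Python 3.11.15 did the rest. Simulated 4-fold and 16-fold changes were recovered at 0% and 34.3% for HYL organs (19844 genes tested), and at 46.3% and 80.6% for the fruit of other lines (21243 genes tested). The changes were planted only in genes of higher mean level, so these rates do not describe members with low values.

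The members, lists and tests were chosen with earlier results of these data known. Named members are the first 2 by rank, the 2 highest in Zunla 1 stem, those at the rank limit, the 2 largest and 2 smallest HYL stem excesses, the 2 largest called rises and falls of each comparison, the 2 highest in mature green fruit and in chiltepin, and 2 at 0 in all chiltepin libraries. Lists by product name are void, because 0 IDs matched the table for assembly UCD10Xv1.1. Line names pair ZJ49 and HYL fruit of both stages, and the deviations of same-line libraries from the stage means correlated at 0.61. Median-of-ratios scaling, no filter, a pseudocount of 0.1, other thresholds, the line as a block and leaving out libraries were tried as alternatives.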

Additional observations from a re-analysis of the deposited data

Results flagged for a closer look

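17 named members were examined for a library far from the other 7 among mature green fruit of 8 lines, and 8 had one by Dixon's criterion on RPKM. Chance meets this criterion in about 1 in 20 groups of normally distributed values, which RPKM need not be. The share over all genes was not computed, and some of the 17 were named for a high mature green value. The count of 8 is therefore not read as an excess. ZJ32 stood apart for Capana00g003405, at 1364 RPKM with the next line at 651, and for Capana00g004781, at 286 RPKM with the next at 143. 11c320 stood apart for Capana02g002900, at 131 RPKM with the next at 60.7, for Capana06g000460, at 56.1 RPKM with the next at 19.8, and for Capana01g000187, where 0.205 RPKM is 2 reads and all others are 0. ZJ9 stood apart for Capana01g001090, at 39.4 RPKM with the next at 1.89, and for Capana11g002303, at 3.02 RPKM with the next at 1.38. ZJ49 stood apart for Capana02g003199, at 12.9 RPKM with the next at 5.69.

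For 7 of the members described by name the stem excess was of opposite sign in HYL and Zunla 1. It was -3.14 for Capana00g004781 in HYL, against 1.81 in Zunla 1, and -4.04 for Capana02g003199 in HYL, against 1.46 in Zunla 1. It was -1.97 for Capana12g001930 in HYL, against 2.21 in Zunla 1, -1.78 for Capana03g003909, against 5.00, and -1.14 for Capana03g003908, against 3.03. It was -0.05 for Capana08g002085 in HYL, against 1.46 in Zunla 1. For Capana02g001780 it was -0.24 in HYL, where the highest value is 2 reads, against 4.93 in Zunla 1. The difference was not tested, since each line had 1 stem library, and the rule fixed the sign in Zunla 1. Capana00g004781 and Capana02g003199 were named for the smallest HYL stem excess. Capana02g001780, Capana03g003909 and Capana03g003908 were chosen after their values were seen. The count of 7 therefore follows in part from the choice and is not read as a share of the members.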

How the results depend on the processing

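Of the 100 members, 98 remained with a pseudocount of 0.1, 85 with median-of-ratios scaling and 88 with a threshold of 5 RPKM. The 29 members at least 2-fold higher in HYL stem became 11 at 4-fold, 27 with scaling and 33 with a pseudocount of 0.1, and 30 to 49 when 1 other HYL library was left out (49 without HYL root, where 8.69% of all genes met it). The 59 with any excess became 57 with scaling and 59 to 75 when 1 other HYL library was left out. For HYL vegetative organs against fruit, 0 members were higher with no filter and 0 to 3 when 1 library was left out, against 5, and 0 were lower in all of these. For fruit 5 days after breaker against mature green, with 2 members higher and 5 lower, a pseudocount of 0.1 gave 1 and 8, no filter gave 2 and 3, the shallower libraries gave 0 and 0, and adding both HYL fruit libraries gave 1 and 11. Leaving out 1 library gave 0 to 2 higher and 0 to 10 lower. With the line as a replicate block (ZJ49 and HYL only, 46 members tested), 2 were higher and 19 lower, against 3.56% and 12.7% of 17997 genes. The same 4 libraries with no replicate block, an alternative added after seeing the data, gave 0 and 0 by limma, with 9 genes higher and 12 lower in all. Scaling moved the median of all genes by -0.50 in the HYL comparison and by 0.12 in the other, where it also moved the share of higher calls over all genes to 51.9% from 38.1%, while 2 and 5 members were called as before. Benjamini-Hochberg adjusted limma p-values over the alternatives ran from 0.00369 to 0.332 for Capana00g004655, 0.00113 to 0.242 for Capana06g001688, 0.00563 to 0.369 for Capana11g002303, 0.0378 to 0.908 for Capana12g001930, 0.0156 to 0.2 for Capana06g000460 and 0.019 to 0.2 for Capana10g002303, with no change of direction. The cause of these changes was not tested. RPKM under about 0.5 rests on few reads.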

Other observations

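In breaker fruit of unclear line, titled HYL but otherwise labelled Zunla 1, the members had a median of 0.775 RPKM. 48 members reached 1 RPKM there, against 59.7% of all genes, and 27 had 0 reads. Capana02g001780 had 1.05 RPKM, Capana00g003405 had 425 RPKM and Capana06g000782 had 227 RPKM.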
